A study of Homo sapiens with 9 samples.

Results

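The NRF2 and glutathione redox genes are a list of 45 genes that make and use glutathione, carry reducing power, and detoxify peroxides, quinones and electrophiles. They were read on Affymetrix U133 Plus 2.0 arrays of MDA-MB435 cells. A gene counted as read where a probe set was listed with that gene and no other, and the probe set brightest on average across the 9 arrays then stood for it. By this rule 44 of the 45 members were read, of 19775 genes read in all. FTH1 had no such probe set here.

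MDA-MB435, called MDA-MB435S in the study's methods, is a human metastatic melanoma line. The study profiled it to follow the changes in expression that the tumor suppressor WWOX brings about. Stable clones were selected with 2 mg/ml G418 after transfer of a lentiviral pDEST12.2 vector. The EV cells received the empty vector, the WWOX cells wild-type WWOX, and the WFPA cells WWOX with a mutated first WW domain, the part of the protein that holds its partners. Each group had 3 arrays. The study speaks of them as replicates of a clone, and the sources used here do not say whether they came from separate cultures, so p-values measure only the spread between arrays, and a clone cannot be told apart from its vector.

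NRF2, the product of NFE2L2, is a transcription factor that KEAP1 normally marks for degradation. Oxidants and electrophiles modify KEAP1, NRF2 then accumulates, pairs with small MAF proteins and binds antioxidant response elements near its targets. Because this control acts mainly on the stability of the protein, the mRNA of NFE2L2 is no direct reading of NRF2 activity, and its targets are the usual readout. The targets make glutathione, recycle thioredoxin and supply NADPH, and tumor cells, melanoma among them, lean on these systems against oxidative stress.

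All values are log2 expression as deposited, and a difference of 1 is 2-fold. WWOX itself was at 8.94 ± 0.284 (SD, n = 3) with the empty vector, 10.24 ± 0.118 (SD, n = 3) with the mutant and 10.66 ± 0.276 (SD, n = 3) with wild-type WWOX, and the WFPA and WWOX arrays overlapped. The vector field of the labels gives wild-type WWOX for the EV arrays and none for the WWOX arrays, and the EV names carry wox+. The sample names were used, by which the EV cells held the least WWOX. Correlations between arrays of a group ran from 0.987 to 0.996 over all probe sets. Of 9 melanocyte markers read, MITF, SOX10 and S100B rose in WWOX cells. At limma's adjusted p under 0.05 with no fold limit, 1 marker was lower than in the mean of EV and WFPA. The count was also 1 lower against EV, and 0 lower against WFPA. The log2 of the summed level of all 9 was 14.24 to 14.44 in WWOX cells, against 12.64 to 12.73 in EV and 12.45 to 12.52 in WFPA cells. TYRP1 lay under the lower quartile on all 9 arrays, and MLANA and PMEL were between 4.09 and 6.22. The next counts of markers also required a change of at least 2-fold. Of 10 epithelial markers 4 were lower (2.06% of all genes) and 1, ERBB3, higher (1.94%) in WWOX cells than in the mean of the others. KRT8 and KRT18 were lower and ERBB3 higher in WWOX than in EV cells. CDH1 and GATA3 were higher in WFPA than in EV cells, and EPCAM lay under the lower quartile throughout. With no fold limit 5 epithelial markers were lower and 1 higher than in the mean of the others (10.9% and 9.49% of all genes). Of 10 fibroblast markers 3 were higher (LUM, FAP and COL1A2) and 1 lower (POSTN) in WWOX cells than in the mean of the others. Of 7 haematopoietic markers read, PTPRC, a leukocyte gene, had means of 9.88, 7.67 and 5.48 in EV, WFPA and WWOX cells. In each comparison, with or without the fold limit, 1 of the 7 passed, as lower, and 6 did not pass. Whether these shifts have a part in the redox results was not tested. In such bulk RNA, fewer cells of a kind and less RNA per cell cannot be told apart.

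Few redox genes changed 2-fold, and few of all genes did. Called genes had an adjusted p under 0.05 from limma (Benjamini-Hochberg) and a change of at least 2-fold. Against the mean of EV and WFPA, 1 member was lower in WWOX cells, as were 2.06% of all genes, and 0 were higher, against 1.94% of all genes. Against EV alone 0 members were higher and 0 lower, while 2.11% of all genes were higher and 1.79% lower. Against WFPA, 3 members were lower (2.72% of all genes) and 0 higher (2.01%). Between WFPA and EV, 1 member was higher (1.54%) and 0 were lower (0.693%). In either direction 2.27%, 0%, 6.82% and 2.27% of the members were called, beside 4.01%, 3.9%, 4.73% and 2.23% of all genes. At 4-fold, the limit in the methods, no member was called, beside 1.16%, 1.25%, 1.44% and 0.491% of all genes in these 4 comparisons. The 4 members called at 2-fold were GSTM3, GSTA4, GSS and TXNIP. GSTM3 was lower in WWOX cells than in the mean of EV and WFPA and than in WFPA. GSTA4 and GSS were lower in WWOX than in WFPA cells only, and TXNIP was higher in WFPA than in EV cells. With limma's unadjusted p under 0.05 and 2-fold the counts were no larger, and a plain linear model without moderated variances also gave 0 where limma did. The comparisons share arrays, so their counts are not independent of each other.

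Smaller differences passed the adjusted p of limma in 12 further members. With no fold limit, 9 members were lower and 1 higher in WWOX cells than in the mean of EV and WFPA, beside 10.9% and 9.49% of all genes. Against EV, 5 were lower (7.86%) and 4 higher (6.96%), and against WFPA 11 were lower (11% of all genes) and 0 higher (9.38%). Between WFPA and EV 5 were higher (4.95%) and 0 lower (3.67%). At limma's unadjusted p under 0.05, 17 members fell and 3 rose from WFPA to WWOX cells. From EV to WFPA cells 13 members rose and 1 fell at this cut. No share of all genes is given for the unadjusted counts. The other 28 members passed in no comparison. For 38 of the 44 the 95% interval lay within 2-fold in all 4 comparisons. No share of all genes is given for these counts over several comparisons. With the sign left out, the median difference of a member was 0.179 for WWOX against EV, beside 0.171 over all genes. For WWOX against WFPA it was 0.211 beside 0.210, and for WFPA against EV 0.161 beside 0.142. Against the average of both other groups it was 0.167 in WWOX cells, beside 0.177.

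Across the list, the WFPA cells held the highest mean of the 3 groups in 23 members, the EV cells in 9 and the WWOX cells in 12. Among all genes these shares were 26.3%, 28.6% and 45.1%. The lowest mean was that of WWOX cells in 23 members (31.2% of all genes), of EV cells in 13 (25.8%) and of WFPA cells in 8 (43%). In 16 members all 3 WFPA arrays lay above the 6 others (9.25% of all genes), and in 0 all lay below them (9.39%). All WWOX arrays lay below the others in 9 members (10.5%) and above them in 3 (10.8%). The EV arrays all lay below the others in 7 members (5.21%) and above them in 2 (6.42%). The median difference of the 44 members was -0.10 between WWOX and WFPA cells (0.07 over all genes), -0.03 between WWOX and EV cells (0.03) and 0.10 between WFPA and EV cells (-0.04). The SD of a member within its group had a median of 0.0847, 0.051 and 0.124 in EV, WFPA and WWOX cells.

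**Figure D1:**
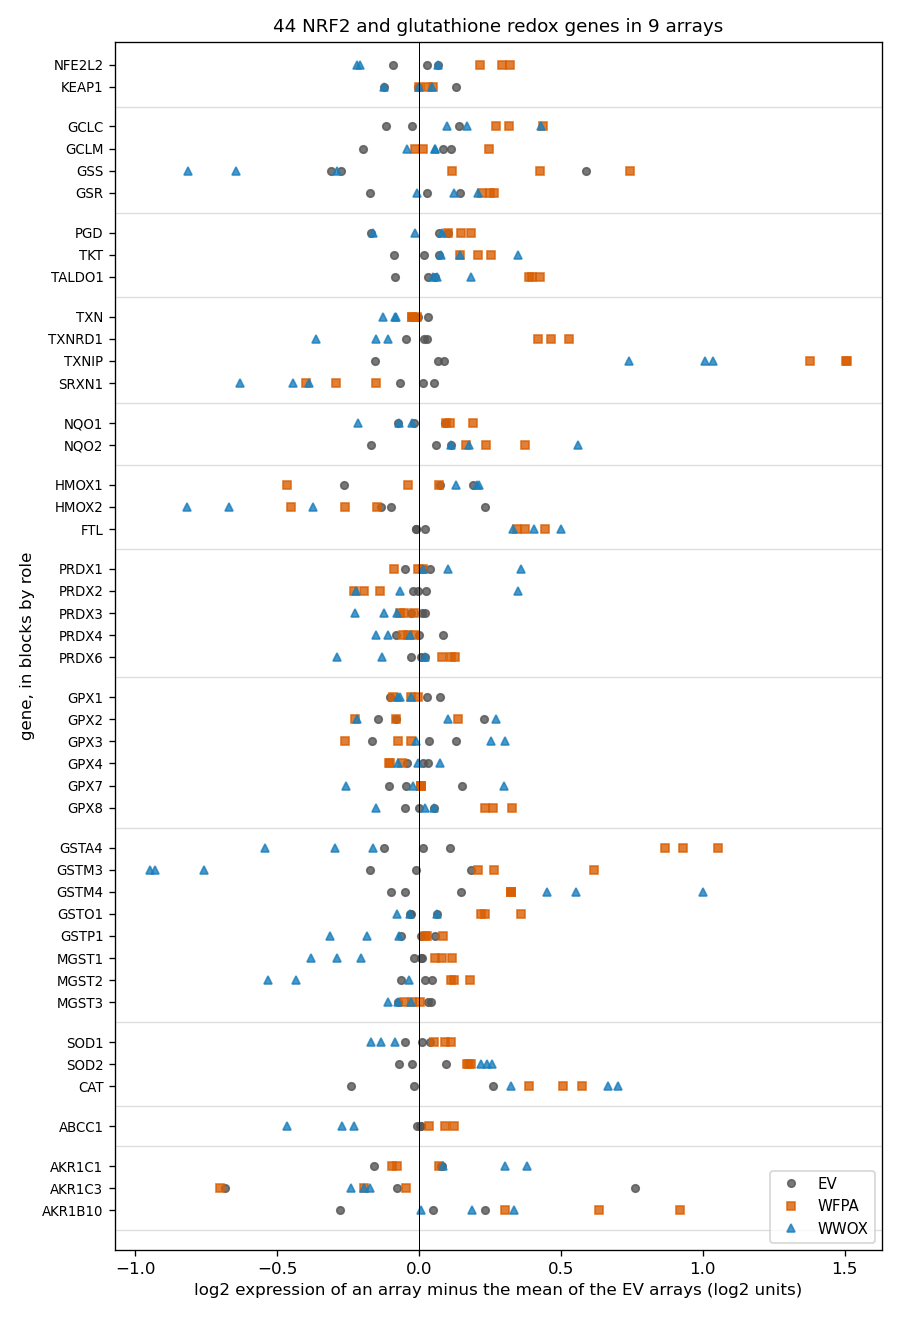
Log2 expression of each of the 44 members on the 9 arrays, minus the mean of the member's EV arrays, in log2 units, with a row per member in blocks by role, and a colour and marker for each group (EV, WFPA, WWOX). The TXNIP points of WFPA cells lie farthest to the right, around 1.46, and the GSTM3 points of WWOX cells farthest to the left, around -0.88.

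Promoter sequence was looked up for the antioxidant response element, whose core letters are TGACNNNGC. In the RefSeq promoters of GRCh38.p14, from 250 bases before to 50 after each start and on both strands, 13.3% of 35116 promoters held these letters. Of 35 members with a listed promoter, 9 had at least 1 match (25.7%), beside 16.1% of 27305 genes. The windows below are those of members that passed a test, GSTA4, TXNRD1 and MGST1, followed by GCLM and GSTP1, which passed none. KEAP1, PGD, GPX2 and GSTO1 also had a match and passed no test, and their windows are not shown. Capitals mark the match and each window is written on the strand that carries it.
GSTA4, chr6:52995275-52995303, minus strand: ccgggaccgcTGACCTGGCgctttgtgcg
TXNRD1, chr12:104215670-104215698, plus strand: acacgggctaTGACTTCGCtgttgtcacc
TXNRD1, chr12:104215761-104215789, minus strand: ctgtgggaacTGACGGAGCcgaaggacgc
TXNRD1, chr12:104286920-104286948, minus strand: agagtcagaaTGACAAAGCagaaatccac
MGST1, chr12:16347135-16347163, plus strand: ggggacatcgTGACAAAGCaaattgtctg
GCLM, chr1:93909446-93909474, plus strand: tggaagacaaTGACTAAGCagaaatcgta
GSTP1, chr11:67583736-67583764, plus strand: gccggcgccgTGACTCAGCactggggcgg
The GSTP1 match overlaps TGACTCA, the letters of an AP-1 site. No match was found in the listed promoters of NFE2L2, TXNIP, SRXN1, NQO1 or GSTM3, which says only that these letters are not in those windows. A match is a description of letters and was not tested for binding.

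The regulators came first. NFE2L2 measured 10.52, 10.36 and 10.48 in EV, 10.67, 10.77 and 10.75 in WFPA, and 10.52, 10.25 and 10.24 in WWOX cells. The WFPA arrays were the 3 highest, and the EV and WWOX arrays overlapped. NFE2L2 lay 0.40 lower in WWOX than in WFPA cells (difference -0.40, standard error 0.102, limma adjusted p = 0.0295), under 2-fold, and the differences of WFPA from EV (0.28, adjusted p = 0.173) and of WWOX from EV (-0.12, adjusted p = 0.515) did not pass in limma. A dimmer NFE2L2 probe set gave -0.58 between WWOX and WFPA cells (limma adjusted p = 0.0397), and the dimmest gave 0.22 (limma adjusted p = 0.114). KEAP1, the adaptor that targets NRF2 for degradation, read 10.83, 10.95 and 11.09 in EV, 11.01, 10.99 and 10.96 in WFPA, and 10.96, 11.01 and 10.84 in WWOX cells. The 3 groups overlapped, no pairwise difference went beyond -0.05 or 0.03, and the 95% bounds ran from -0.26 to 0.24.

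Among the enzymes of glutathione synthesis and recycling, GSS alone was called. GCLC, the catalytic subunit of glutamate-cysteine ligase, the rate-limiting enzyme, measured 9.79, 9.70 and 9.96 in EV, 10.13, 10.25 and 10.09 in WFPA, and 10.24, 9.92 and 9.98 in WWOX cells. All WFPA arrays lay above all EV arrays, but the difference of 0.34 did not pass (limma adjusted p = 0.133). GCLM, its modifier subunit and a standard NRF2 target, measured 9.04, 9.01 and 8.74 in EV, 8.92, 9.18 and 8.95 in WFPA, and 8.89, 8.99 and 8.99 in WWOX cells. These groups overlapped, with a 95% interval of -0.18 to 0.34 between WFPA and EV and of -0.23 to 0.28 between WWOX and EV cells.

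GSS, glutathione synthetase, which adds glycine in the last step, measured 11.88, 11.92 and 12.78 in EV, 12.94, 12.62 and 12.31 in WFPA, and 11.91, 11.55 and 11.38 in WWOX cells. The WWOX arrays lay below all WFPA arrays and overlapped with EV, whose replicate 3 stood apart from its replicates 1 and 2. GSS was 2.02-fold lower in WWOX than in WFPA cells (log2 difference -1.01, standard error 0.262, limma adjusted p = 0.03). Against EV the difference was -0.58 (limma adjusted p = 0.207). The other GSS probe set gave -1.07 against WFPA (standard error 0.186, limma adjusted p = 0.00471). The call at the brighter probe set ends when WFPA replicate 1 (-0.85, limma adjusted p = 0.103), WFPA replicate 2 (-1.01, 0.0826), WWOX replicate 2 (-0.98, 0.0784) or WWOX replicate 3 (-0.90, 0.088) is left out. GSR, glutathione reductase, which regenerates glutathione, differed by at most 0.25 between groups.

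Of the enzymes of the pentose phosphate pathway that supply NADPH or recycle its sugars, none was called. TALDO1, transaldolase, had means of 12.19, 12.60 and 12.29 in EV, WFPA and WWOX cells. It lay 0.40 higher in WFPA than in EV cells (limma adjusted p = 0.0216) and -0.31 from WFPA in WWOX cells (limma adjusted p = 0.0359), both under 2-fold. PGD, 6-phosphogluconate dehydrogenase, and TKT, transketolase, stayed between -0.18 and 0.20 in every pairwise comparison. A dimmer TKT probe set, the least bright of 3, lay 1.04 above WFPA in WWOX cells (standard error 0.144, limma adjusted p = 0.00145), where the brightest gave -0.01.

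The thioredoxin system held the largest change of the list. TXNIP, the thioredoxin-interacting protein, which binds and inhibits thioredoxin and limits glucose uptake, measured 10.07, 10.09 and 9.85 in EV, 11.38, 11.51 and 11.51 in WFPA, and 11.04, 11.01 and 10.74 in WWOX cells. The 3 groups did not overlap, with EV lowest and WFPA highest. TXNIP was 2.76-fold higher in WFPA than in EV cells (log2 difference 1.46, standard error 0.113, limma adjusted p = 0.000144). WWOX cells lay 0.93 above EV (limma adjusted p = 0.00087) and -0.54 from WFPA (limma adjusted p = 0.0119), both under 2-fold. The other TXNIP probe sets gave 1.43 and 1.49 between WFPA and EV cells (limma adjusted p = 0.00191 and 0.00209).

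TXNRD1, thioredoxin reductase, a selenoenzyme and NRF2 target, measured 13.51, 13.50 and 13.44 in EV, 13.90, 14.01 and 13.95 in WFPA, and 13.38, 13.33 and 13.12 in WWOX cells. The groups did not overlap, with WFPA highest and WWOX lowest. TXNRD1 differed by -0.68 between WWOX and WFPA cells (standard error 0.0929, limma adjusted p = 0.00134) and by 0.47 between WFPA and EV cells (limma adjusted p = 0.018), both under 2-fold. SRXN1, sulfiredoxin, which repairs overoxidized peroxiredoxins, measured 11.31, 11.35 and 11.23 in EV, 10.90, 11.01 and 11.14 in WFPA, and 10.85, 10.91 and 10.67 in WWOX cells. Its EV arrays were the 3 highest, and the WFPA and WWOX arrays overlapped. SRXN1 lay -0.49 from EV in WWOX cells (limma adjusted p = 0.0147), under 2-fold. TXN, thioredoxin itself, differed by -0.10 to -0.02.

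**Figure D2:**
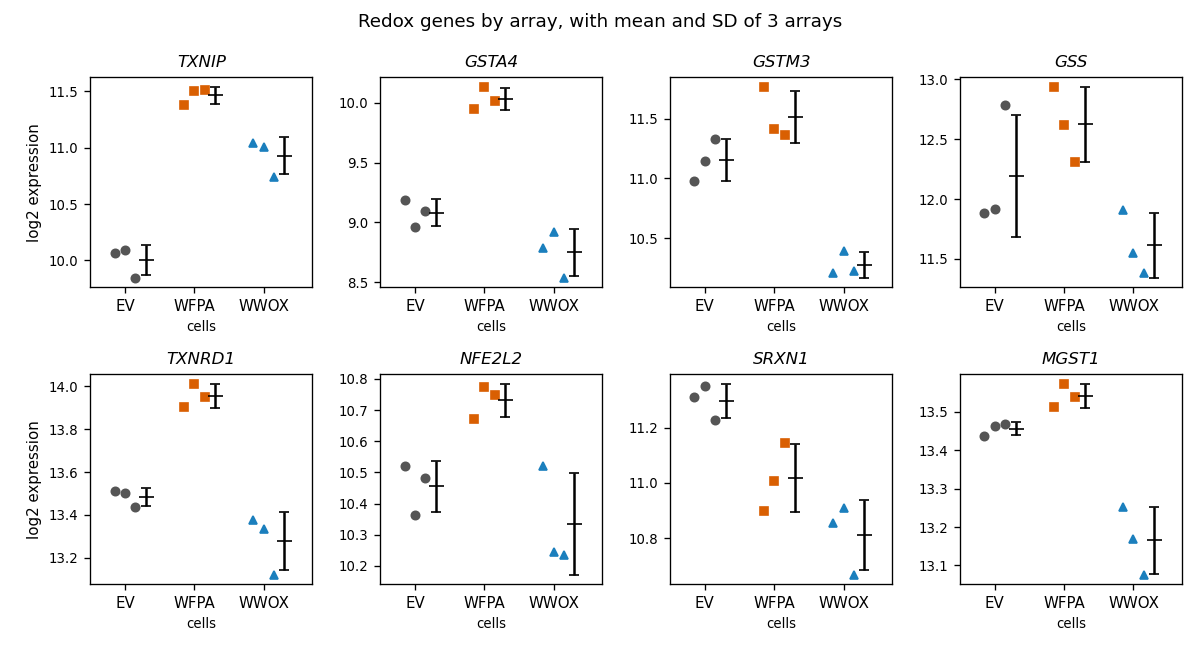
Log2 expression of TXNIP, GSTA4, GSTM3, GSS, TXNRD1, NFE2L2, SRXN1 and MGST1 on each array of EV, WFPA and WWOX cells, each point an array and the black bar the group mean with its SD (n = 3). In TXNRD1 and GSTA4 the WFPA points lie highest and the WWOX points lowest, and in TXNIP the EV points lie lowest.

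The quinone reductases and the heme and iron genes had no called member. NQO1, the quinone reductase widely used as an NRF2 readout, measured 13.05, 13.21 and 13.10 in EV, 13.21, 13.23 and 13.31 in WFPA, and 13.09, 13.05 and 12.90 in WWOX cells. The WFPA arrays were the 3 highest by a narrow margin, and EV and WWOX overlapped. WWOX and WFPA cells differed by -0.24 (limma adjusted p = 0.111, 95% interval -0.44 to -0.03). Another NQO1 probe set gave -0.34 (limma adjusted p = 0.0231). NQO2 differed by at most 0.28.

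HMOX1, the inducible heme oxygenase, measured 8.55, 8.67 and 8.21 in EV, 8.44, 8.55 and 8.01 in WFPA, and 8.61, 8.69 and 8.68 in WWOX cells. The lowest arrays of EV and WFPA cells were both replicate 3, EV overlapped with both other groups, and the 95% bounds over the pairwise differences ran from -0.51 to 0.69. HMOX2, the constitutive heme oxygenase, lay -0.62 from EV in WWOX cells (limma adjusted p = 0.0271). FTL, the ferritin light chain, which stores iron, had means of 12.74, 13.13 and 13.15 in EV, WFPA and WWOX cells. It lay 0.41 above EV in WWOX cells and 0.39 in WFPA cells (limma adjusted p = 0.0117 and 0.0246), all EV arrays being below the others.

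The peroxide removers moved little. The 5 peroxiredoxins, thiol peroxidases of the cytosol, mitochondria and secretory pathway, ranged from -0.24 to 0.21 in pairwise differences, and the lowest limma adjusted p was 0.119. PRDX1 rested on a dim probe set at 5.11 to 5.56, under the median of every array, so a change in it could be missed. Of the glutathione peroxidases, which reduce peroxides with glutathione, GPX1, GPX2, GPX3, GPX4 and GPX7 ranged from -0.12 to 0.30. GPX2 and GPX7 lay under the lower quartile of every array (4.22 to 4.34), so a change in them could not be read. GPX8, of the endoplasmic reticulum, lay -0.30 from WFPA in WWOX cells (limma adjusted p = 0.0479). Its dimmer probe set differed far more, by 1.44 between WFPA and EV (limma adjusted p = 0.000169) and by -0.94 between WWOX and WFPA cells (limma adjusted p = 0.000729), so the size for GPX8 depends on the probe set.

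The glutathione transferases, which join glutathione to electrophiles, held 2 of the 4 called members. GSTA4, which acts on the lipid peroxidation product 4-hydroxynonenal, measured 9.19, 8.96 and 9.10 in EV, 9.95, 10.14 and 10.01 in WFPA, and 8.79, 8.92 and 8.54 in WWOX cells. All groups were apart, with WFPA highest and WWOX lowest. GSTA4 was 2.44-fold lower in WWOX than in WFPA cells (log2 difference -1.28, standard error 0.118, limma adjusted p = 0.000138). It lay 0.95 above EV in WFPA cells (limma adjusted p = 0.00195), just under 2-fold, and -0.33 from EV in WWOX cells (limma adjusted p = 0.112). Its dimmer probe set gave -0.92 against WFPA (limma adjusted p = 0.0487). Without EV replicate 1 the difference of WFPA from EV came to 1.00 and was called.

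GSTM3, a mu-class transferase, measured 10.98, 11.14 and 11.33 in EV, 11.77, 11.42 and 11.36 in WFPA, and 10.20, 10.39 and 10.22 in WWOX cells. The WWOX arrays were the 3 lowest, and the lowest WFPA array (11.36) still lay above the highest EV array (11.33). GSTM3 was 2.09-fold lower in WWOX cells than in the mean of the others (log2 difference -1.06, standard error 0.118, limma adjusted p = 0.000405) and 2.37-fold lower than in WFPA (difference -1.24, standard error 0.137, limma adjusted p = 0.00039). Against EV it differed by -0.88 (limma adjusted p = 0.00346), under 2-fold. Without WFPA replicate 1 the difference from the mean of both was -0.998, just under 2-fold. A dim GSTM3 probe set, with a mean of 5.02 in EV cells, gave -0.23 against WFPA (limma adjusted p = 0.604). Mu-class genes are alike in sequence, and whether these probe sets also read a paralog was not tested.

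GSTM4, its neighbour in the same class, went the other way, with means of 8.14, 8.46 and 8.81 in EV, WFPA and WWOX cells. It lay 0.67 above EV in WWOX cells (limma adjusted p = 0.0166), under 2-fold. MGST1, a microsomal transferase of the endoplasmic and mitochondrial membranes, had means of 13.46, 13.54 and 13.17 and lay -0.38 from WFPA (limma adjusted p = 0.0131) and -0.29 from EV in WWOX cells (limma adjusted p = 0.0481). Over its 5 probe sets the difference of WWOX from WFPA ran from -0.38 to -1.05, the brightest giving the smallest. MGST2 lay -0.47 from WFPA (limma adjusted p = 0.034). GSTO1, GSTP1 and MGST3 ranged from -0.29 to 0.27, and the lowest limma adjusted p was 0.0515.

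**Figure D3:**
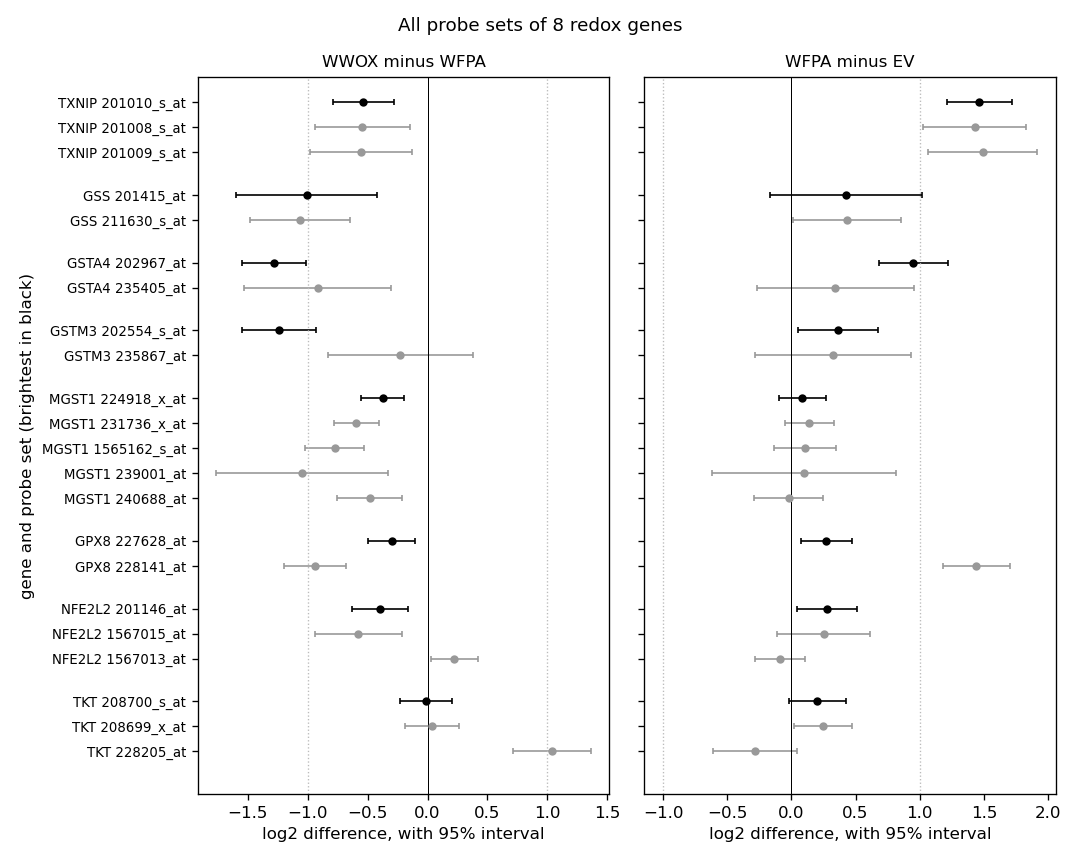
Log2 difference of WWOX minus WFPA and of WFPA minus EV for every probe set of TXNIP, GSS, GSTA4, GSTM3, MGST1, GPX8, NFE2L2 and TKT, with 95% intervals, the brightest probe set of each gene in black and dotted lines at a 2-fold change. The TXNIP and GSS probe sets give like values, while those of GSTM3, MGST1, GPX8, NFE2L2 and TKT differ.

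SOD1 and SOD2, the cytosolic and mitochondrial superoxide dismutases, ranged from -0.21 to 0.24. CAT, catalase, which breaks down hydrogen peroxide in peroxisomes, had means of 9.58, 10.07 and 10.15 in EV, WFPA and WWOX cells, with all EV arrays below the others. It lay 0.56 above EV in WWOX cells (limma adjusted p = 0.0404), under 2-fold, and 0.49 above EV in WFPA cells (limma adjusted p = 0.0979). ABCC1, the pump that exports glutathione conjugates, had means of 12.31, 12.40 and 11.99. Its WWOX arrays were the 3 lowest, -0.32 from EV (limma adjusted p = 0.0461) and -0.41 from WFPA (limma adjusted p = 0.014). The aldo-keto reductases AKR1C1, AKR1C3 and AKR1B10, which reduce carbonyls and steroids and include well-known human NRF2 targets, ranged from -0.44 to 0.62 with a lowest limma adjusted p of 0.0869. AKR1C3 spread widely in EV cells (4.73 ± 0.726, SD, n = 3), and AKR1C genes are alike in sequence.

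Beyond the members, 86 further genes of the pathway were read: regulators, cystine and glutathione handling, NADPH sources, thioredoxin-related enzymes, transferases and detoxifying targets. Against the mean of EV and WFPA, 5 were called in WWOX cells, 2 higher and 3 lower (4.01% of all genes in either direction). Against EV 3 were called, 2 higher and 1 lower (3.9%), against WFPA 7, 3 higher and 4 lower (4.73%), and between WFPA and EV 6, 5 higher and 1 lower (2.23%). Of the 12 other regulators, 10 other NADPH sources and 14 other transferases and peroxidases, 0 were called in any comparison at 2-fold by limma. With no fold limit, limma's adjusted p passed 1 higher and 1 lower of these regulators, 2 higher NADPH sources and 2 higher transferases against the mean of EV and WFPA (9.49% of all genes higher and 10.9% lower). Between WFPA and EV cells 4 of the regulators passed higher and 0 lower (4.95% and 3.67% of all genes), between WWOX and WFPA cells 1 higher and 3 lower (9.38% and 11%), and between WWOX and EV cells 2 higher and 1 lower (6.96% and 7.86%).

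The largest change was that of SLC7A11, which encodes the cystine carrier subunit of system xc- and so supplies cysteine for glutathione. It measured 8.62, 8.56 and 8.66 in EV, 11.13, 11.20 and 11.34 in WFPA, and 8.24, 8.32 and 7.99 in WWOX cells. WFPA stood far above both other groups, and WWOX lay lowest. SLC7A11 was 6.08-fold higher in WFPA than in EV cells (log2 difference 2.60, standard error 0.108, limma adjusted p = 3.65e-06) and 8.21-fold lower in WWOX than in WFPA cells (difference -3.04, limma adjusted p = 5.62e-07). Between WWOX and EV cells it differed by -0.43 (limma adjusted p = 0.0319), under 2-fold. SLC3A2, the heavy chain that brings the carrier to the membrane, lay 1.14 above EV in WFPA cells (limma adjusted p = 0.000637).

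CHAC1, which degrades glutathione, had the same order, with means of 7.26, 9.29 and 6.90 in EV, WFPA and WWOX cells. It was 4.1-fold higher in WFPA than in EV cells (limma adjusted p = 1.95e-05) and 5.25-fold lower in WWOX than in WFPA cells (limma adjusted p = 2.73e-06). SESN2, sestrin 2, which protects against oxidative stress and restrains mTORC1, was 3.24-fold higher in WFPA than in EV cells (limma adjusted p = 0.00155) and 5.55-fold lower in WWOX than in WFPA cells (limma adjusted p = 6.67e-05). SLC7A11, CHAC1 and SESN2 are known targets of ATF4 as well as redox genes, and which factor lay behind their change was not tested. When EV and WFPA were fitted as 1 group, the calls of SLC7A11, CHAC1 and SESN2 against their mean ended (limma adjusted p = 0.16, 0.158 and 0.0667).

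SESN3, another sestrin, had means of 6.62, 6.28 and 8.17 and was 2.93-fold higher in WWOX than in EV cells (limma adjusted p = 0.000505) and 3.7-fold higher than in WFPA cells (limma adjusted p = 0.000129). GGT7, a gamma-glutamyltransferase family member, measured 8.73, 9.41 and 10.39 in WWOX cells, above all other arrays, whose highest was 8.41. Its difference from EV was 1.50 (limma adjusted p = 0.036). Leaving out any EV array, WFPA replicate 2 or 3, or WWOX replicate 2 or 3 ended this call (limma adjusted p from 0.0535 to 0.116). It also ended without moderated variances (adjusted p = 0.116), with only EV and WWOX cells in the limma fit (0.0809), and with the mean of all probe sets, where the difference was 0.93. NXN, nucleoredoxin, fell 3.14-fold from EV to WFPA cells (limma adjusted p = 0.00295) and 2.13-fold higher in WWOX than in WFPA cells (limma adjusted p = 0.0105), the latter under 2-fold without WFPA replicate 2 (0.91) or WWOX replicate 3 (0.97). AKR1C2, an aldo-keto reductase, was 2.08-fold lower in WWOX than in EV cells (limma adjusted p = 0.00737), under 2-fold without EV replicate 2 (-0.91) or WWOX replicate 2 (-0.94). In WFPA cells AKR1C2 also lay -0.95 from EV (limma adjusted p = 0.0195), just under 2-fold. CYP4F11, a cytochrome P450, was 2.44-fold higher in WFPA than in EV cells (limma adjusted p = 0.00612) and 2.13-fold lower in WWOX than in WFPA cells (limma adjusted p = 0.00638). The latter was under 2-fold without WFPA replicate 3 (-0.92), and CYP4F11 was too dim to be tested where 3 arrays had to lie over the median.

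**Figure D4:**
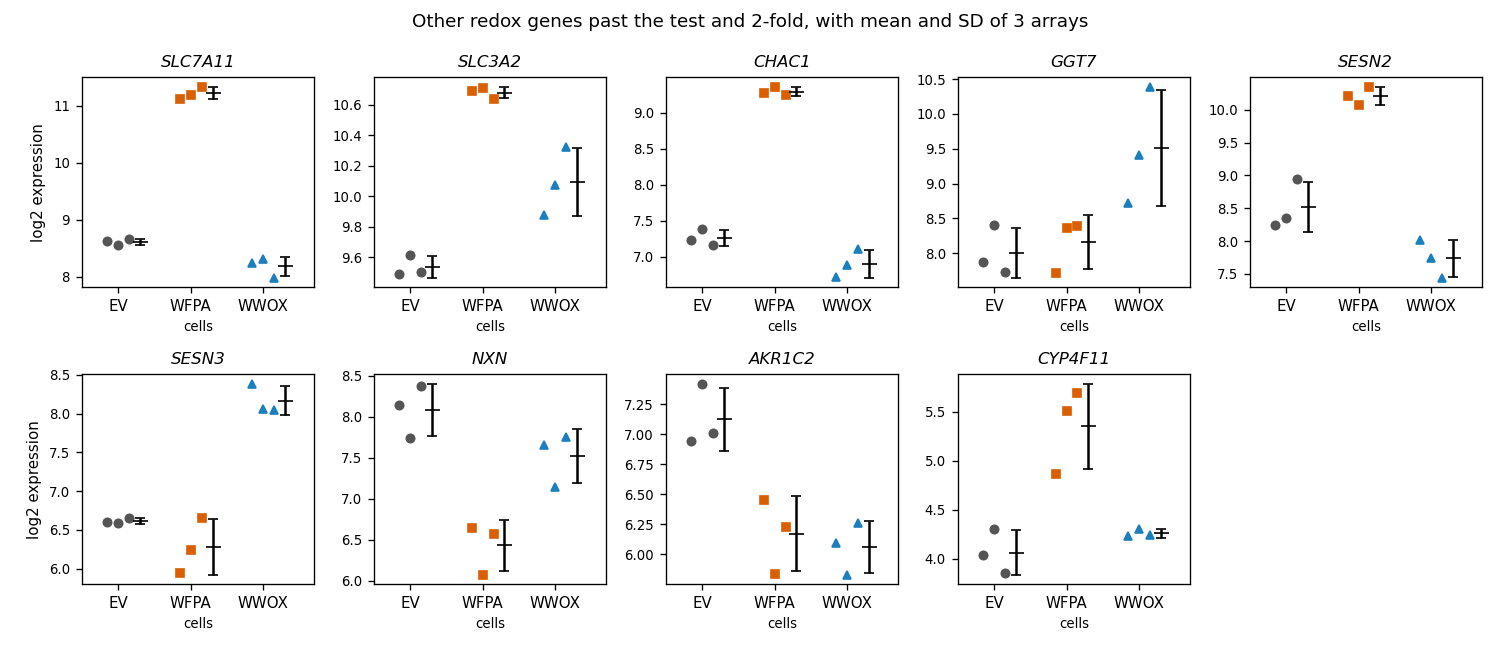
Log2 expression of SLC7A11, SLC3A2, CHAC1, GGT7, SESN2, SESN3, NXN, AKR1C2 and CYP4F11 on each array of EV, WFPA and WWOX cells, each point an array and the black bar the group mean with its SD (n = 3). SLC7A11, CHAC1 and SESN2 are highest in WFPA cells, and SESN3 and GGT7 in WWOX cells.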

How the data were processed

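Total RNA of 9 samples was read on 9 Affymetrix U133 Plus 2.0 arrays. Partek Genomics Suite 6.5 was the authors' software, and the authors deposited log2 expression values per probe set on a common scale. The background and normalization methods are not given in the sources used here, and no further normalization was applied. Of 54675 probe sets, 54613 were tested after 62 array controls were dropped. In the annotation used here 41091 name 1 gene, 1801 name several and 11721 name none.

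With limma 3.58.1 under R 4.3.3, 3 group means were fitted to the 9 arrays (6 residual degrees of freedom, 3.04 prior degrees of freedom), with Benjamini-Hochberg adjustment over all 54613 probe sets. Called means an adjusted p under 0.05 and at least 2-fold. The methods' limit of 4-fold was an alternative. SD is that of 3 arrays and intervals are 95% intervals from limma. Precision is limited by having 3 arrays per group. The fit was tested on simulated data.

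Members, lists and rules were chosen with earlier results of these data known. All members were named, arrays were given for called members and for NFE2L2, KEAP1, GCLC, GCLM, TXNRD1, SRXN1, NQO1 and HMOX1, and of the companion genes up to 6 called per comparison with the largest change besides SLC7A11. Other alternatives were quantile normalization or median centring, 2 filters on dim probe sets, limma-trend, variances not moderated or with a robust prior, Bonferroni adjustment, calls with no fold limit, a block for the replicate number, fits of only the groups compared or without each array in turn, and the probe set of largest variance or the mean of all in place of the brightest.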

Additional observations from a re-analysis of the deposited data

How the results depend on the processing

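The limits are the 3 arrays per group, which may be technical repeats, the unknown normalization and background, and a sample label that conflicts with the sample names. The 5 calls of members (GSTM3 in 2 comparisons, GSS, GSTA4 and TXNIP) kept their direction under every alternative run. Alternatives of variance, adjustment, limit, filter, block or groups fitted left the difference itself unchanged, so the direction could not turn under them. Genes that were not called could turn with the probe set: TKT between WWOX and WFPA cells went from -0.01 to 1.04 and NFE2L2 from -0.40 to 0.22. Also, the shift of the median of all genes stayed under 0.1 with median centring and quantile normalization.

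With no fold limit the members called were 1 higher and 9 lower (WWOX against the mean of EV and WFPA), 4 and 5 (against EV), 11 lower (against WFPA) and 5 higher (WFPA against EV). With Bonferroni adjustment those lower against the mean of EV and WFPA became 0 and against WFPA 0. TXNIP kept its call (limma Bonferroni-adjusted p = 0.0204). At 4-fold these counts were 0 and 0, and WFPA against EV 0. The mean of all probe sets gave 0 lower against the mean of EV and WFPA. The probe set of largest variance gave 1 higher against WFPA (TKT, by 1.04) and 2 higher in WFPA against EV (GPX8 added). Leaving out 1 array gave 0 to 1 lower against the mean of EV and WFPA (0 without WFPA replicate 1). It gave 0 to 1 higher against EV (TXNIP, 1.02 without WWOX replicate 3), 2 to 3 lower against WFPA, and 1 to 2 higher in WFPA against EV.

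Companion genes called against the mean of both went from 5 to 2 with Bonferroni adjustment, 21 with no fold limit, 0 at 4-fold, 2 with EV and WFPA fitted as 1 group, 3 with the mean of all probe sets and 4 to 5 with 1 array left out. Against EV they went from 3 to 0, 19, 0, 0 (mean of all probe sets) and 1 to 3. Against WFPA they went from 7 to 3, 24, 3 and 5 to 7. In WFPA against EV they went from 6 to 2, 18, 2 and 6 to 7.

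GSS against WFPA also lost its call with no empirical Bayes and quantile normalization (range -1.17 to -0.85), as did GSTM3 against WFPA with the mean of all probe sets (range -1.32 to -0.73). GSTA4 against WFPA ranged from -1.37 to -1.10 and TXNIP in WFPA against EV from 1.39 to 1.51. With limma-trend, a robust prior, the filter on the mean over the lower quartile or median centring no count of calls changed. The cause of the changes with other probe sets, averaged probe sets or a pooled control group was not tested.

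Arrays of the same number in different groups showed no strong shared deviation: the correlations ran from -0.0521 to 0.0348, and 0 of 9 exceeded 0.1. Whether arrays of the same number were handled together is not stated, and these correlations cannot decide it. With the replicate number as a block, GSS lost its call, the members lower against WFPA were 2, and no other count of calls changed. GSTM3 remained called against the mean of EV and WFPA (limma adjusted p = 0.00303) and against WFPA (0.00288). GSTA4 against WFPA (limma adjusted p = 0.00105) and TXNIP in WFPA against EV (0.000899) also kept their calls.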
